A study of Mus musculus with 18 samples.

Results

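Expression of 10 genes that mark hepatic stellate cells was followed in the livers of mice given GDF15. The genes were chosen by name from the 16245 genes of the count table, and each was present once. Of these, 6 were grouped as markers of the quiescent, vitamin A-storing cell (Lrat, Reln, Hgf, Rgs5, Cygb and Ecm1). The other 4 belong to the contractile machinery or its cytoskeleton (Des, Acta2, Tagln and Myl9). The sets are groupings by name, and how particular each gene is to the quiescent or the contractile state was not tested. The comparison asked whether quiescence and contractile markers moved apart or together when mice were treated with GDF15 or ate less.

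Livers came from 18 wild-type male C57BL/6 mice that were moved to a NASH diet, an obesogenic diet that produces fatty liver with inflammation and scarring, and to 29 °C housing at 8 weeks of age. In the GDF15 group, 6 mice received recombinant GDF15, an appetite-lowering stress cytokine, by daily subcutaneous injection. The vehicle group had 6 mice on the same diet, and the pair-fed group had 6 mice that were given only the food that GDF15-treated mice had eaten on the previous day. The labels name daily doses of 0.3, of 1 and of 5 nmol/kg for the study. For these livers the sources used here give 1 nmol/kg in one place and 5 nmol/kg in another, and which is right was not settled. Each liver was sequenced in bulk, so fewer stellate cells and less RNA per stellate cell cannot be told apart in any value below.

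Stellate cells lie between hepatocytes and sinusoidal endothelium and hold most of the vitamin A of the body as retinyl ester, which LRAT makes from retinol. On injury they lose these stores and become myofibroblasts that contract through smooth muscle α-actin (encoded by Acta2), transgelin (Tagln) and myosin regulatory light chain (Myl9), and lay down collagen. In the quiescent state they also secrete hepatocyte growth factor (Hgf), which acts on hepatocytes, and reelin (Reln), a large extracellular glycoprotein. Desmin (Des) is an intermediate filament long used to identify stellate cells in rodents and is also found in vascular muscle. RGS5, a regulator of G protein signalling, is shared with pericytes. Cytoglobin (Cygb) is an oxygen-binding protein of stellate cells, and extracellular matrix protein 1 (Ecm1) restrains the release of active TGFβ.

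In build GRCm38 the quiescence genes are Lrat at chr3:82892579-82903973, Reln at chr5:21884454-22344702, Hgf at chr5:16553495-16620152, Rgs5 at chr1:169655501-169695813, Cygb at chr11:116645595-116654313 and Ecm1 at chr3:95734147-95739569. The contractile genes are Des at chr1:75360329-75368579, Acta2 at chr19:34241090-34255590, Tagln at chr9:45929619-45936058 and Myl9 at chr2:156775420-156781658. Hgf, Rgs5, Des and Myl9 are on the plus strand and the others on the minus strand.

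The letters upstream of the start site are shown for 4 members, to set a quiescence marker that was lower in GDF15 livers (Lrat) and one that did not pass (Ecm1) beside the actin and myosin genes of the contractile set (Acta2 and Myl9). The sequences are the 250 bases before the start in RefSeq promoters of build GRCm38, which held 8 of the 10 members (not Tagln or Cygb), and they read 5′ to 3′ towards the gene. GENCODE begins Acta2 and Myl9 further upstream than RefSeq does. The Lrat window is chr3:82903975-82904224 on the minus strand, the Ecm1 window chr3:95739570-95739819 on the minus strand, the Acta2 window chr19:34255374-34255623 on the minus strand and the Myl9 window chr2:156775214-156775463 on the plus strand. Capitals mark CArG boxes, which are binding sites of serum response factor, CArG-like forms in which exactly 1 of the A or T core bases is a C or G, and TATAAA.
Lrat: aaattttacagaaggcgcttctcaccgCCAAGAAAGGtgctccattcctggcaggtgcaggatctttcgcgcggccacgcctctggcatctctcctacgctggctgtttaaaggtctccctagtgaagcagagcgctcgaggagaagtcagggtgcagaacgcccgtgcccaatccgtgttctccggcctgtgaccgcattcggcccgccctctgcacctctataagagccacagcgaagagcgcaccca
Ecm1: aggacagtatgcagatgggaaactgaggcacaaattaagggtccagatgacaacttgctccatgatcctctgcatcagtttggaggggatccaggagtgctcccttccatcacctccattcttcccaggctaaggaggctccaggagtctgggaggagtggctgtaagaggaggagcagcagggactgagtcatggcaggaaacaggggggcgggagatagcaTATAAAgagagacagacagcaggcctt
Acta2: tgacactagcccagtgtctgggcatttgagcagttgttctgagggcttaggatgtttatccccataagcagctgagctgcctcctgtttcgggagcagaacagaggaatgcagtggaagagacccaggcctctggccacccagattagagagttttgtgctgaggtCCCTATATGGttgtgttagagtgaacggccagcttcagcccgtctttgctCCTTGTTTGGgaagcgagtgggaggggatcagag
Myl9: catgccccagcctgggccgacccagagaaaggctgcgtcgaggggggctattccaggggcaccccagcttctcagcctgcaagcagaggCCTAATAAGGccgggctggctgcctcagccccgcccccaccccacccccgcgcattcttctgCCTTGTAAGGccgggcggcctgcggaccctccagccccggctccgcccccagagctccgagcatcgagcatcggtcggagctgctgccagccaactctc

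Motifs were searched on both strands in the 250 bases before and 50 bases after the start, where the 8 genes had 9 promoters because Hgf has more than 1 start. A CArG box was found only in Myl9, as CCTAATAAGG at bases -161 to -152, and 1.63% of all 32851 promoters held one. The CArG-like form, which was added after the data were seen, was present in 8.50% of promoters and in 3 of the 9 member promoters. These were Acta2, with CCCTATATGG at -84 to -75 and CCTTGTTTGG at -34 to -25, Myl9, with CCTTGTAAGG at -99 to -90, and Lrat, with CCAAGAAAGG at -223 to -214. Thus the actin and myosin promoters both carried such letters within 100 bases of the RefSeq start, while the sequence in Lrat lay further upstream. Des, the other contractile promoter searched, carried none, and the Acta2 matches lie inside the gene as GENCODE bounds it. TATAAA, the core TATA box, occurred in 13.6% of promoters and in 1 member, Ecm1, at -27 to -22. CATTCC, the site of TEAD factors, occurred in 14.7% of promoters and in Lrat at -208 to -203 and, on the opposite strand, in Acta2 at -146 to -141. These matches describe letters, and no binding was measured.

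Total counts ranged from 16508864 to 35301853 per liver. Counts were divided by a size factor to give normalized counts, and 3 counts, a limit for counting error only, corresponded to 1.74 to 3.90 normalized counts. Hepatocyte transcripts dominated, as labelled, and the summed level of 10 hepatocyte markers was 1820000 to 3240000 normalized counts per liver. Genes of adipocytes and skeletal muscle summed to at most 5.94. A pair of features of the libraries bears on the members. Pair-fed replicates 1 to 3 were the 3 smallest libraries of that group (17180057 to 17926397 counts) and replicates 4 to 6 the 3 largest (25047723 to 35301853), and 9.83% of the 12883 genes that averaged 10 or more normalized counts were lower in all of replicates 4 to 6 than in all of replicates 1 to 3. GDF15 replicate 4 had the lowest mean level of the quiescence markers and of the contractile markers of all 18 livers. Member calls that rest on these libraries are given with and without them. Group means and correlations between genes are over all livers.

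Levels were compared between genes only per kilobase of the longest coding transcript (GENCODE, GRCm38). In vehicle livers Ecm1 was the most abundant member at 1130 ± 105 normalized counts per kilobase (SD, n = 6), and its lowest liver (1010) lay above the highest of any other member. Cygb (210 ± 52.0 per kilobase), Rgs5 (179 ± 41.5) and Tagln (157 ± 33.0) followed. Next came Reln (101 ± 12.5 per kilobase), Lrat (80.5 ± 20.7) and Myl9 (55.6 ± 7.94). The lowest levels per kilobase were those of Acta2 (41.2 ± 16.1), Des (40.8 ± 8.74) and Hgf (38.4 ± 7.94). Below Ecm1, every neighbouring pair in this order overlapped in range, so the order of neighbours was within the spread between livers. Pairs further apart could be separate, such as Cygb (lowest liver 124) and Lrat (highest 113). With the median length of the coding transcripts in place of the longest, Rgs5 ranked 2, Tagln 3 and Cygb 4. By the longest transcript Tagln was the fourth of the 10, and the other contractile markers were among the 4 lowest. Acta2 rested on 15 to 165 and Myl9 on 28 to 85 raw counts per liver.

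GDF15 livers had lower levels of 7 of the 10 markers than vehicle livers, and no marker was higher. The 7 comprised 5 of the 6 quiescence markers (Lrat, Reln, Hgf, Rgs5 and Cygb) and 2 of the 4 contractile markers (Tagln and Des). For background, 17.5% of 14667 genes tested were lower and 15.8% higher at the same threshold, a DESeq2 adjusted p under 0.05. No member also passed the fold threshold of the study, an absolute log2 fold change above 1, which 6.27% of genes did. The median log2 fold change was -0.48 over the 10 members, -0.48 over the quiescence markers and -0.65 over the contractile markers, beside 0.00 over all genes tested. Quiescence and contractile markers were therefore shifted in the same direction.

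**Figure D1:**
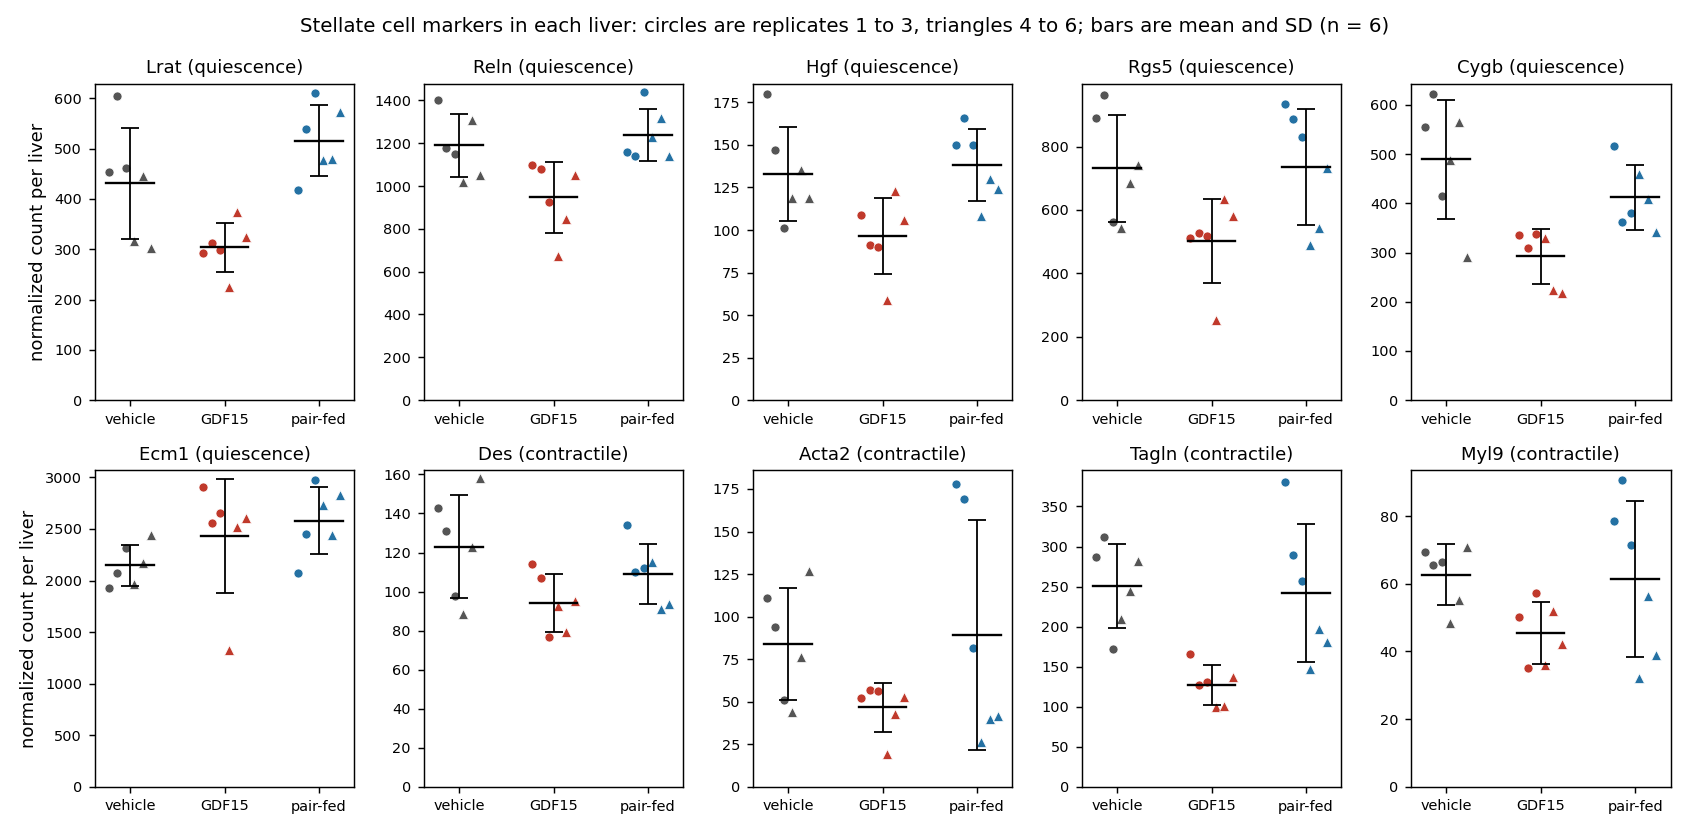
Normalized counts (vertical axes, starting at 0) of the 10 markers in each liver of the vehicle, GDF15 and pair-fed groups, with circles for replicates 1 to 3, triangles for replicates 4 to 6, and mean ± SD (n = 6). GDF15 livers lie below all vehicle livers for Tagln and below all pair-fed livers for Lrat, Reln and Cygb, GDF15 replicate 4 is far below its group for Ecm1 and Rgs5, and the pair-fed triangles lie below the circles for Hgf, Rgs5, Acta2, Tagln and Myl9.

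Lrat, the retinol-esterifying enzyme, ranged from 302 to 604 normalized counts in vehicle livers (median 450) and from 225 to 374 in GDF15 livers (median 305). The groups overlapped, but all 6 GDF15 livers lay below the vehicle median. Lrat fell by 29.3% (-0.50 ± 0.15, SE, on the log2 scale, DESeq2 adjusted p = 0.00577), and it passed without any single liver. Vehicle livers divided by replicate number, at 454 to 604 in replicates 1 to 3 and 302 to 446 in replicates 4 to 6. The GDF15 livers were at 293 to 312 and 225 to 374, so the overlap lay in replicates 4 to 6.

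Cygb had the largest decrease among the quiescence markers. Its levels were 290 to 623 normalized counts (median 523) in vehicle and 218 to 338 (median 320) in GDF15 livers, and 1 low vehicle liver, replicate 6, lay inside the GDF15 range. Cygb fell by 40.3% (-0.74 ± 0.17 on the log2 scale, DESeq2 adjusted p = 9.44e-05), which also held without any single liver.

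The secreted factors were lower by smaller margins. Reln was 1020 to 1400 normalized counts (median 1160) in vehicle and 673 to 1100 (median 990) in GDF15 livers, a fall by 0.32 ± 0.11 on the log2 scale (DESeq2 adjusted p = 0.0172). Hgf was 101 to 180 (median 127) in vehicle and 59.1 to 123 (median 98.5) in GDF15 livers, and fell by 0.47 ± 0.16 (DESeq2 adjusted p = 0.0166). Rgs5, the pericyte-shared regulator, was 544 to 963 (median 714) in vehicle and 252 to 633 (median 522) in GDF15 livers, and fell by 0.54 ± 0.20 (DESeq2 adjusted p = 0.0273). In each of these genes the groups overlapped and 3 or 4 of 6 GDF15 livers lay below every vehicle liver. These calls rested on single livers: Reln did not pass without vehicle replicate 1 (DESeq2 adjusted p = 0.0648) or 5 (0.0510), Hgf without vehicle replicate 1 (0.0734) or GDF15 replicate 4 (0.0507), and Rgs5 without vehicle replicate 1 (0.0805), vehicle replicate 2 (0.0957) or GDF15 replicate 4 (0.0618).

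Ecm1, the inhibitor of TGFβ release, was the only quiescence marker with a higher mean after GDF15. It was 1930 to 2440 normalized counts (median 2120) in vehicle livers, and 5 GDF15 livers lay above all of them, at up to 2910, whereas GDF15 replicate 4 was at 1330. The difference of 0.18 ± 0.14 (95% interval -0.09 to 0.45) did not pass (DESeq2 adjusted p = 0.336). Without GDF15 replicate 4 it was 0.30 and passed (adjusted p = 0.00329), and then 4 members were lower and 1 was higher.

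Among contractile markers, Tagln, the actin-binding protein transgelin, was lower without overlap. It ranged from 172 to 312 normalized counts (median 263) in vehicle and from 100 to 166 (median 129) in GDF15 livers, and fell by 49.2% (-0.98 ± 0.21 on the log2 scale, DESeq2 adjusted p = 3.09e-05), also without any single liver. Such separation of all 6 GDF15 livers below all 6 vehicle livers was found in 7.58% of 12883 genes that averaged 10 or more normalized counts, and in 1 of the 10 members. Des was 88.3 to 158 (median 127) in vehicle and 76.8 to 114 (median 93.8) in GDF15 livers. Its fall by 0.38 ± 0.15 (DESeq2 adjusted p = 0.0405) was near the threshold, and it passed in only 4 of the 12 fits that left out 1 liver of these groups (adjusted p 0.00868 to 0.121). It did not pass without vehicle replicate 1, 2, 5 or 6 or GDF15 replicate 3, 4, 5 or 6.

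Acta2, the classical marker of stellate cell activation, was 44.1 to 127 normalized counts (median 85.0) in vehicle and 19.3 to 56.8 (median 52.5) in GDF15 livers. All GDF15 livers lay below the vehicle median, but the vehicle livers spanned a wide range. The difference was -0.84 ± 0.41 (95% interval -1.64 to -0.04) and did not pass (DESeq2 adjusted p = 0.1). Myl9 was 48.4 to 71.0 (median 66.0) in vehicle and 35.1 to 57.3 (median 46.2) in GDF15 livers, with a difference of -0.46 ± 0.23 (-0.91 to -0.01, adjusted p = 0.109). The Acta2 interval includes a decrease as large as that of Tagln and one near 0, and the Myl9 interval one near 0. Both genes passed when only vehicle and GDF15 livers were fitted (adjusted p = 0.0160 for Acta2 and 0.0297 for Myl9), whereas Des did not pass in that fit (0.0571). The count of lower members moved to 3 without vehicle replicate 1 and to 4 without GDF15 replicate 4, and was 4 with only replicates 1 to 3 and 2 with only replicates 4 to 6 of each group.

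Against pair-fed livers, which ate as little, 6 of the 10 markers were lower in GDF15 livers and none was higher. The 6 were the same 5 quiescence markers and Tagln, where 13.8% of 14353 genes tested were lower and 13.3% higher, and none passed the fold threshold as well (3.37% of genes did). This comparison uses the same GDF15 livers as the comparison with vehicle. The median log2 fold change was -0.50 over the members, -0.50 over the quiescence markers and -0.67 over the contractile markers, and 0.00 over all genes.

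Lrat was 418 to 610 normalized counts (median 509) in pair-fed livers, above every GDF15 liver, and its decrease of 0.76 ± 0.15 had the lowest adjusted p of the members (DESeq2 adjusted p = 1.48e-05). Reln was 1140 to 1440 (median 1190) and Cygb 341 to 517 (median 394) in pair-fed livers, and neither overlapped the GDF15 group. Reln fell by 0.38 ± 0.11 (adjusted p = 0.00450) and Cygb by 0.49 ± 0.17 (adjusted p = 0.0164). All GDF15 livers below all pair-fed livers thus occurred in 3 of the 10 members, all quiescence markers, and in 5.62% of 12883 genes. Cygb did not pass without GDF15 replicate 5 (DESeq2 adjusted p = 0.0503), GDF15 replicate 6 (0.0518) or pair-fed replicate 1 (0.0589).

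Hgf was 108 to 166 normalized counts (median 140) and Rgs5 488 to 934 (median 781) in pair-fed livers. Hgf fell by 0.51 ± 0.16 (DESeq2 adjusted p = 0.00948) and Rgs5 by 0.55 ± 0.20 (adjusted p = 0.0293), but Rgs5 did not pass without GDF15 replicate 4 (0.0633) or pair-fed replicate 1 (0.0878), 2 (0.0820) or 3 (0.0670). Tagln was 147 to 381 (median 227) in pair-fed livers, 5 of 6 GDF15 livers lay below all of them, and it fell by 0.92 ± 0.21 (adjusted p = 0.000130). Ecm1 (-0.09 ± 0.14, 95% interval -0.36 to 0.19, adjusted p = 0.690) and Des (-0.20 ± 0.15, -0.50 to 0.10, adjusted p = 0.347) did not pass. Neither did Acta2 (-0.93 ± 0.41, -1.73 to -0.12, adjusted p = 0.0763) or Myl9 (-0.41 ± 0.23, -0.86 to 0.03, adjusted p = 0.170). Acta2 passed without pair-fed replicate 4 (DESeq2 adjusted p = 0.0187), 5 (0.0399) or 6 (0.0397), and Myl9 without pair-fed replicate 4 (0.0392).

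**Figure D2:**
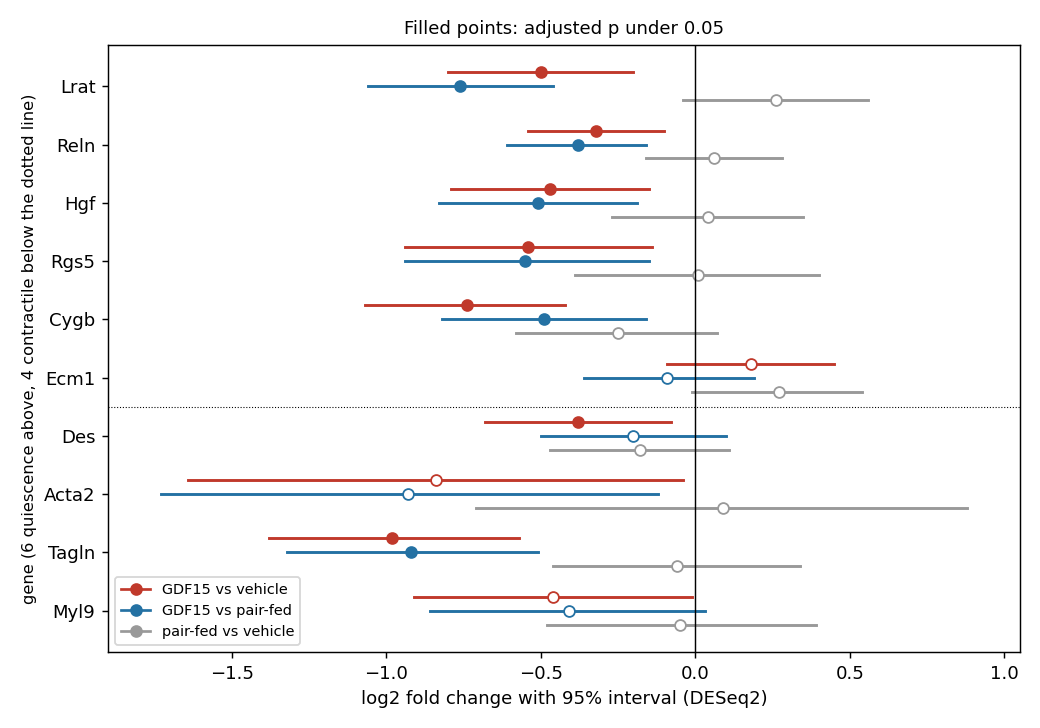
Log2 fold changes (horizontal axis, with 95% intervals) of the 6 quiescence and 4 contractile markers in the comparisons of GDF15 with vehicle, GDF15 with pair-fed and pair-fed with vehicle livers, with filled points at a DESeq2 adjusted p under 0.05. Lrat, Reln, Hgf, Rgs5, Cygb and Tagln are filled on the left in both GDF15 comparisons, and all 10 intervals for pair-fed against vehicle include 0.

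Within the pair-fed group, 3 of the 4 contractile markers divided by replicate number. Acta2 was 81.8 to 178 normalized counts in pair-fed replicates 1 to 3 and 26.4 to 41.9 in replicates 4 to 6, a ratio of means of 0.253. Myl9 was 71.6 to 90.6 and 32.2 to 56.5 (ratio 0.530), and Tagln 257 to 381 and 147 to 197 (ratio 0.566). Des overlapped, at 110 to 134 and 91.1 to 115. Of the quiescence markers, Rgs5 (831 to 934 and 488 to 731) and Hgf (150 to 166 and 108 to 130) divided in the same way, whereas Lrat, Reln, Cygb and Ecm1 did not. Hence 5 of the 10 members did not overlap between these subsets of pair-fed livers, against 9.83% of all genes. By the same replicate numbers, 0 members divided in GDF15 livers and 1 in vehicle livers (Lrat). The pair-fed subsets also differ in library size, and the part of library size in these values was not tested. In the GDF15 group replicates 4 to 6 were the smaller libraries (16508864 to 19108435 counts, against 21050932 to 25001486 in replicates 1 to 3).

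Markers of other cells moved with these subsets. Smooth muscle myosin (Myh11) was 97.0 to 115 normalized counts in pair-fed replicates 1 to 3 and 41.2 to 49.4 in replicates 4 to 6, and 3 of the 7 smooth muscle and pericyte genes with a mean of at least 10 (Myh11, Lmod1 and Notch3, named after their values were seen) were lower without overlap. The same held for 8 of 10 Kupffer cell and macrophage genes, whose summed level was 6240 to 6560 and 3950 to 4730. The 25 other stellate cell markers summed to 14300 to 14800 and 12500 to 14200, with 2 genes lower and 1 higher without overlap. Such a division was not confined to pair-fed livers. In GDF15 livers these 25 genes summed to 12500 to 14400 in replicates 1 to 3 and 10600 to 11200 in replicates 4 to 6. Of them, 5 were lower and 0 higher without overlap, and 3 were lower and 0 higher in vehicle livers. Macrophage genes were lower without overlap in 4 of 10 in GDF15 livers and 0 in vehicle livers. The share of all genes was not counted for these groups. The part of other cells in the values of Acta2, Tagln and Myl9 was not tested. With only the 3 smallest pair-fed libraries, 7 members were lower in GDF15 livers, among them Acta2 (log2 fold change -1.61, DESeq2 adjusted p = 0.000104) and Myl9 (-0.82, adjusted p = 0.000365). With only the 3 largest, 1 member was lower, Acta2 was at 0.38 (adjusted p = 0.509) and Myl9 at 0.10 (adjusted p = 0.807), so the direction for these contractile genes against pair-fed livers depended on which pair-fed livers were used.

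Pair-feeding itself was not accompanied by a detectable change in any of the 10 markers. Against vehicle, 0 of 16242 genes passed with DESeq2 (0.0%, with or without the fold threshold) and 0 of 12992 with edgeR. In other DESeq2 fits a few genes passed, such as 3 with only these 12 samples, 18 with only replicates 4 to 6 and 31 with the 3 largest pair-fed libraries, but no member did. In the fit of all samples 718 genes had an unadjusted p under 0.05, none of them a member. The largest differences among members were Ecm1 at 0.27 ± 0.14 (95% interval -0.01 to 0.54), Lrat at 0.26 ± 0.15 (-0.04 to 0.56) and Cygb at -0.25 ± 0.17 (-0.58 to 0.07), each with a DESeq2 adjusted p of 0.998. Acta2 was at 0.09 ± 0.40, with an interval of -0.71 to 0.88 that leaves room for a sizeable difference either way. The median over members was 0.02.

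The balance of the marker sets was described for each liver by the mean log2(normalized count + 1) of the 4 contractile markers minus that of the 6 quiescence markers. This difference was -2.44 ± 0.30 (SD, n = 6) in vehicle, -2.69 ± 0.11 in GDF15 and -2.65 ± 0.50 in pair-fed livers. The GDF15 livers, at -2.90 to -2.59, lay within or just below the vehicle range of -2.70 to -1.87, and the shift of the mean by -0.25 was smaller than the SD of the vehicle group. With medians over the markers in place of means the shift was 0.01, and against pair-fed livers the mean differed by -0.04. The separate means had moved more: the quiescence mean was 9.23 ± 0.20 in vehicle and 8.83 ± 0.26 in GDF15 livers, and the contractile mean 6.79 ± 0.34 and 6.14 ± 0.25. In pair-fed livers the difference was -2.62 to -1.98 in replicates 1 to 3 and -3.21 to -2.88 in replicates 4 to 6. No test was made of this score because its genes were chosen by name with earlier results known.

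**Figure D3:**
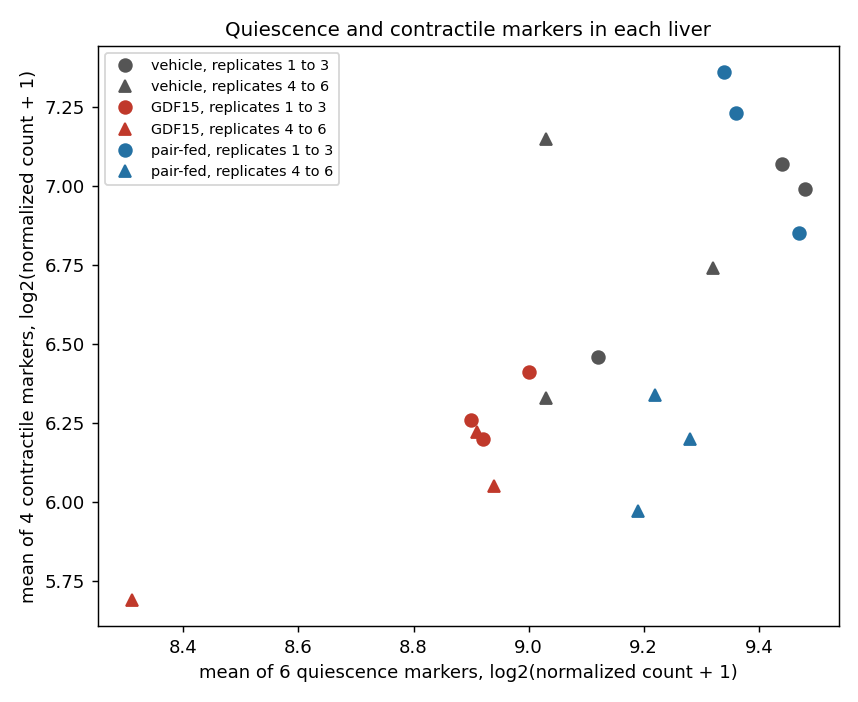
Mean log2(normalized count + 1) of the 6 quiescence markers (horizontal axis) and of the 4 contractile markers (vertical axis) in each of the 18 livers, with colour for group, circles for replicates 1 to 3 and triangles for 4 to 6. GDF15 livers sit at the lower left, with GDF15 replicate 4 at 8.31 and 5.69, and pair-fed triangles (5.97 to 6.34 on the vertical axis) sit below the pair-fed circles (6.85 to 7.36), with quiescence means of 9.19 to 9.28 and 9.34 to 9.47.

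After each group mean was taken off, members of the contractile set varied together over the 18 livers. The median Pearson's r was 0.66 over their 6 pairs (0.19 to 0.89), with Tagln and Acta2 at 0.89 and Myl9 and Acta2 at 0.80. Over the 15 quiescence pairs the median was 0.45 (-0.37 to 0.88), and over the 24 pairs between the sets 0.20 (-0.09 to 0.82). The sets did not divide cleanly. Rgs5 and Hgf were close to each other (r = 0.88) and also followed Acta2 (0.82 and 0.68), whereas Lrat was near 0 with Tagln (0.03) and Des (-0.09). Cygb followed none of the other members above 0.21 and ran opposite to Ecm1 (-0.37). These values are descriptions over livers that share group, library size and composition, and the pair-fed subsets and GDF15 replicate 4 contribute to them.

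**Figure D4:**
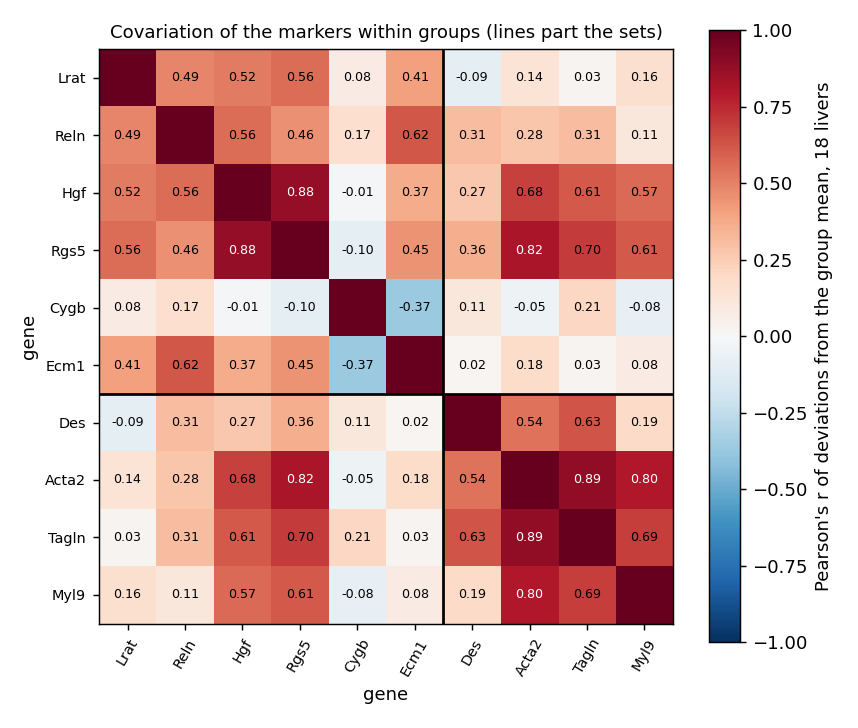
Pearson's r (colour and printed value) between pairs of the 10 markers over 18 livers, from log2(normalized count + 1) after each group mean was taken off, with black lines between the 6 quiescence and the 4 contractile markers. The block of Acta2, Tagln and Myl9 (0.69 to 0.89) extends to Hgf and Rgs5 (0.57 to 0.82), while Cygb is near 0 with most members.

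The genes most like each member by the same measure were found among 10873 genes that averaged 50 or more normalized counts. For Lrat the nearest was Cyp26b1, an enzyme that clears retinoic acid (r = 0.81), followed by Mphosph9 (0.76) and Sp100 (0.74). For Rgs5 it was Postn, a matricellular protein (r = 0.90), then Hpse (0.89) and Plxnc1 (0.86), and for Hgf it was Clec14a (0.89), then Heyl (0.88) and Elk3 (0.88). Reln was nearest to Gpr107 (0.89), Slc43a3 (0.87) and Itpkb (0.86). Cygb was nearest to Ltbp1, a latent TGFβ-binding protein (r = 0.91), Mmp2, a gelatinase (0.90), and Dpysl2 (0.87). Ecm1 was nearest to Angptl6 (0.92), Fcna (0.91) and Cyp4v3 (0.88), of which Angptl6 and Fcna are on the list of other stellate cell markers. Among contractile members, Acta2 was nearest to Tek (0.84), the smooth muscle myosin Myh11 (0.84) and the collagen receptor Ddr2 (0.83). Tagln was nearest to Ccdc80 (0.90), Endod1 (0.89) and Sema3b (0.86), Myl9 to Map4 (0.86), Fam124a (0.85) and Zfp709 (0.84), and Des to Naa20 (0.83), Top2a (0.79) and Gdf10 (0.77).

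Other markers of stellate cells did not all follow the members. Of 25 such genes tested, 10 were lower and 2 higher in GDF15 than in vehicle livers, with a median log2 fold change of -0.20. Spon2, a matrix protein of the spondin family, was 316 ± 121 normalized counts in GDF15 and 760 ± 224 in vehicle livers (log2 fold change -1.27, DESeq2 adjusted p = 0.00137). Adamtsl2 was 319 ± 90.0 and 636 ± 194 (-1.0, adjusted p = 0.000241), and Wt1, a transcription factor shared with mesothelium, 19.8 ± 10.4 and 40.5 ± 12.6 (-1.03, adjusted p = 0.0110). Fcna, ficolin A, was higher at 513 ± 137 against 261 ± 33.6 (0.98, adjusted p = 1.95e-07). Among transcription factors of stellate cell identity, named after their values were seen, Tcf21 was lower in all 6 GDF15 livers than in any vehicle liver (98.9 ± 14.3 against 157 ± 33.2, log2 fold change -0.66, adjusted p = 0.000141). Hand2 (-0.07, 95% interval -0.35 to 0.21), Gata4 (-0.01, -0.29 to 0.27) and Lhx2 (-0.22, -0.49 to 0.04) did not pass. Against pair-fed livers 8 of the 25 were lower and 1 was higher. Spon2 (-0.98, DESeq2 adjusted p = 0.0198) was among the lower and Fcna (0.56, adjusted p = 0.00512) was the higher one. Tcf21 (-0.34, adjusted p = 0.0782) and Adamtsl2 (-0.52, adjusted p = 0.088) did not pass against pair-fed livers.

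Genes of retinoid storage and response went in both directions, with 4 of 19 lower and 4 higher than in vehicle livers and a median of 0.05, shares close to the 17.5% lower and 15.8% higher among all genes. Among those lower were Lpl, lipoprotein lipase (log2 fold change -1.66, DESeq2 adjusted p = 1.82e-09), and Rarb, a retinoic acid receptor and target (-0.99, adjusted p = 8.63e-07). Rxra, the partner of the retinoic acid receptors, was higher (0.42, adjusted p = 0.00188). Against pair-fed livers 2 of 19 genes were lower and 4 higher.

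Partners of the contractile members were lower as well. Of 25 genes of the contractile apparatus, 15 were lower and 0 higher than in vehicle livers (median -0.41), and 12 were lower and 0 higher than in pair-fed livers. Against vehicle the leading genes were tropomyosin Tpm1 (log2 fold change -0.75, DESeq2 adjusted p = 9.93e-08), filamin Flna (-0.74, adjusted p = 0.000151), non-muscle myosin Myh10 (-0.71, adjusted p = 0.000123) and cytoplasmic actin Actg1 (-0.70, adjusted p = 1.15e-10). These proteins are made by many liver cells. Myh11, the myosin of mature smooth muscle, named after its value was seen, was at 0.17 ± 0.34 and did not pass (adjusted p = 0.736).

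Most regulators upstream of the contractile genes did not pass. Of 18 tested genes of serum response factor, its MRTF cofactors and RhoA signalling, 3 were lower and 2 higher (median -0.02). These shares did not exceed the 17.5% lower and 15.8% higher among all genes. Rhoc (-0.87, DESeq2 adjusted p = 1.65e-06), Rhob (-0.43, adjusted p = 0.000371) and the kinase Rock2 (-0.36, adjusted p = 0.00139) were lower, and Agtr1a, the angiotensin receptor, was higher (0.49, adjusted p = 6.58e-06). Against pair-fed livers 2 were lower and 2 higher, beside 13.8% lower and 13.3% higher among all genes.

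Around HGF and reelin, 5 of 11 partner genes were lower and 3 higher than in vehicle livers (median -0.69). The inhibitor Spint1 (-1.47, DESeq2 adjusted p = 0.00142), the protease St14 (-1.39, adjusted p = 0.00526) and urokinase Plau (-1.22, adjusted p = 3.62e-07) were lower, and the HGF activator Hgfac, made by hepatocytes, was higher (0.58, adjusted p = 1.31e-06). Against pair-fed livers 3 were lower and 2 higher. Plau was among the 3 (DESeq2 adjusted p = 0.00102), but Spint1 (adjusted p = 0.218) and St14 (adjusted p = 0.153) did not pass. Genes of fibrogenic activation had a lower median than the members: 15 of 16 were lower and 1 higher than in vehicle livers (median -1.26), and 14 lower and 1 higher than in pair-fed livers. Against vehicle, Timp1 was at -2.99 (adjusted p = 2.25e-08), Col1a1 at -2.51 (adjusted p = 2.88e-13), Col3a1 at -2.21 (adjusted p = 5.79e-21) and Col1a2 at -1.95 (adjusted p = 7.85e-19). No member reached a decrease of that size.

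**Figure D5:**
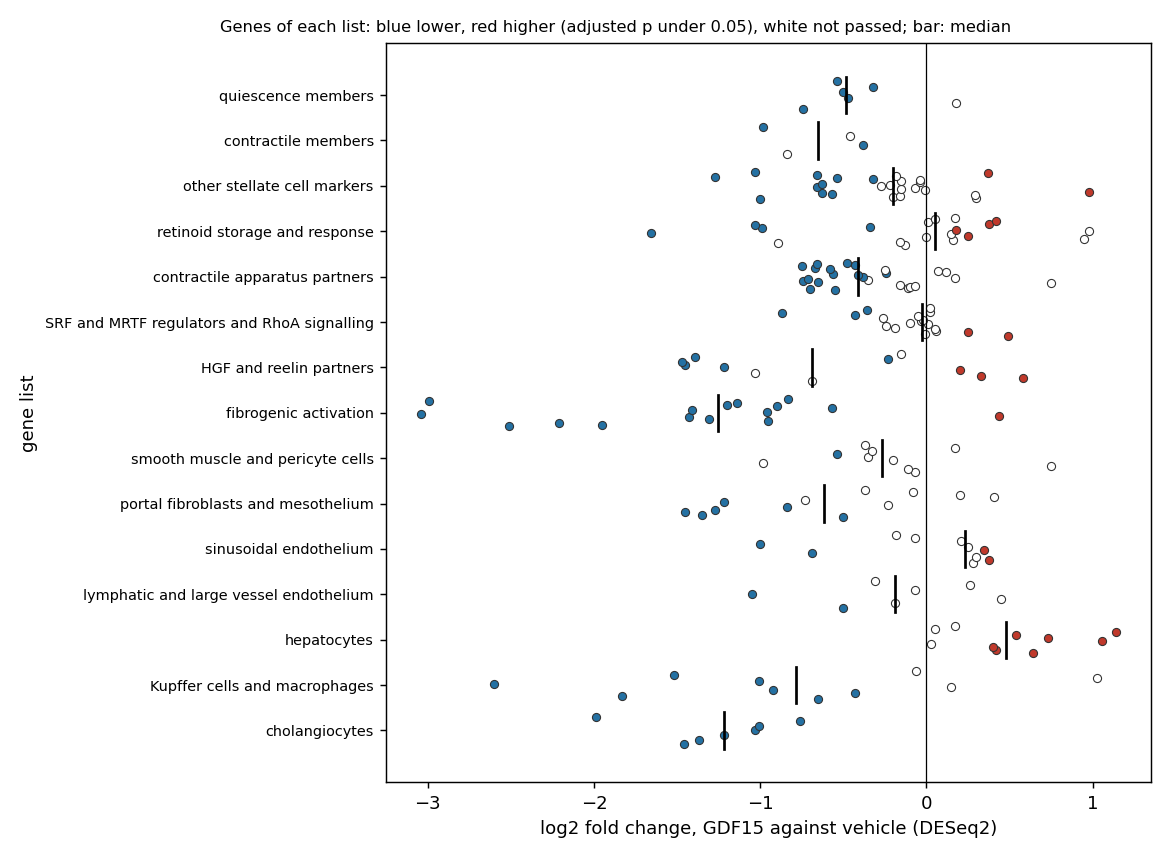
Log2 fold changes of GDF15 against vehicle livers (horizontal axis) for the tested genes of each list (vertical axis), blue where lower and red where higher at a DESeq2 adjusted p under 0.05, white where not passed, with a bar at the median. The members (medians -0.48 and -0.65) lie between the other stellate cell markers (-0.20) and fibrogenic genes (-1.26), and hepatocyte genes lie to the right (0.48).

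Markers of other liver cells moved beside the members. Against vehicle, 7 of 10 hepatocyte markers were higher and 0 lower (median 0.48), led by Serpina1c (log2 fold change 1.14) and Cps1 (1.06). The summed level of the 10 was 2690000 to 3240000 normalized counts in GDF15 livers, 1980000 to 2410000 in vehicle and 1820000 to 2550000 in pair-fed livers. All 7 cholangiocyte markers were lower (median -1.22, Spp1 at -1.99), with sums of 1040 to 2120 in GDF15, 2390 to 8720 in vehicle and 2170 to 6080 in pair-fed livers. Most of these sums was Spp1, the 1 cholangiocyte marker of 7 that was also lower against pair-fed livers (-1.36, DESeq2 adjusted p = 0.00133). Kupffer cell and macrophage markers were lower in 7 of 10 (median -0.79, Gpnmb at -2.60), with sums of 2610 to 5360, 4010 to 8180 and 3950 to 6560 in the same order of groups. The list was not uniform, by genes named after their values were seen. Clec4f (0.15, DESeq2 adjusted p = 0.550) and Timd4 (1.03, adjusted p = 0.0646) had higher means and did not pass, whereas Cd5l was lower (-0.43, adjusted p = 0.0496). Portal fibroblast and mesothelial markers were lower in 6 of 12 (median -0.61, Eln at -1.45), with sums of 457 to 725, 850 to 1490 and 652 to 1490.

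Fewer markers passed for muscle and endothelial cells, which lie beside stellate cells or resemble them. Over all genes tested, 17.5% were lower and 15.8% higher against vehicle. The counts for smooth muscle and sinusoidal markers were near or below these shares. Smooth muscle and pericyte markers were lower in 1 of 10 (Mcam at -0.54, median -0.27), with sums of 672 to 1010 in GDF15, 899 to 1200 in vehicle and 991 to 1220 in pair-fed livers. Among sinusoidal endothelial markers 2 of 10 were lower and 2 higher (median 0.23, Lyve1 at -1.0 and Clec4g at 0.38), with sums of 4240 to 7040, 5160 to 7130 and 5530 to 7620. Lymphatic and large vessel markers were lower in 2 of 7 (median -0.19, Cd34 at -0.50), with sums of 2050 to 3320, 2330 to 3020 and 2680 to 3120. Most of these sums was Prox1, named after its values were seen, at 2190 ± 376 in GDF15 and 1830 ± 255 in vehicle livers. Prox1 did not pass (0.26, DESeq2 adjusted p = 0.109), so the sums say little about the other genes of this list. Which liver cells made the Prox1 transcripts was not tested. Ccl21a, a defining lymphatic gene, was at or near 0 in all 3 groups (at most 3.33 normalized counts, in a vehicle liver) and was not tested against GDF15. Because all values are shares of one bulk library, the part of other cells in the levels of the 10 members was not tested.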

How the data were processed

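Liver RNA of 18 mice was measured by sequencing with paired reads of 50 bases from a directional kit. Per the labels and methods, the authors trimmed reads with Trim Galore and quantified transcripts with Salmon, with mm10 named as the build and versions not given in the sources used here. The deposited values are estimated counts in whole numbers, 1 line per gene symbol and with no depth scaling (16508864 to 35301853 per sample, 16245 genes). All columns were used. Since reads carried no molecular identifiers, floors cover counting error only, and p-values measure the spread between these mice.

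DESeq2 1.42.0 in R 4.3.3 was run on all 18 samples with group as the only factor, by the two-sided Wald test with independent filtering, and adjusted by the Benjamini-Hochberg procedure over all genes tested. The authors also used DESeq2, with its settings not given in the sources used here. A gene passed at an adjusted p under 0.05. Fold changes were not shrunken. Intervals are at the 95% level. The procedure was tested on simulated data. Alternatives were edgeR (version 4.0.16), TMM library sizes, count filters, fits of 12 samples, a replicate block, replicate subsets and leaving out each sample. Members and gene lists were chosen with earlier results of these data known. Named genes were all members, up to 4 genes of each list with the largest fold changes among those that passed against vehicle and averaged 20 or more normalized counts, and the 3 genes closest to each member, except where stated. A gene that this rule names is not reported here. Of the genes on the lists, 7 were not in the table and were not analysed here. Promoters came from RefSeq and transcript lengths from GENCODE release M21, both on GRCm38.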

Additional observations from a re-analysis of the deposited data

Results flagged for a closer look

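Within groups of 6 livers, the lowest or highest value of each member was set against its nearest neighbour with Dixon's critical value. Of 30 groups examined, 3 had a value far from the others, where chance gives about 1 in 20 groups, and all 3 were the low value of GDF15 replicate 4. Rgs5 was at 252 normalized counts in that liver and at 510 in the nearest one. Ecm1 was at 1330 and at 2520 in the nearest liver, and Acta2 at 19.3 and 42.9. In the same liver the smooth muscle and pericyte markers summed to 672 normalized counts (900 to 1010 in the other GDF15 livers) and the sinusoidal endothelial markers to 4240 (5370 to 7040), while the hepatocyte markers summed to 3240000 (2690000 to 3070000). Across 12883 genes averaging 10 or more normalized counts, this liver was far below its group in 0.691% and far above it in 1.76%. The part of cell composition in these low values was not tested.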

How the results depend on the processing

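Member calls were the same under edgeR (7 lower against vehicle and 6 against pair-fed), TMM library sizes, a count filter and no independent filtering. Requiring an absolute log2 fold change above 1 left 0 members lower in either GDF15 comparison. Against vehicle, replicates 1 to 3 alone gave 4 lower and 1 higher and replicates 4 to 6 alone 2 lower, with Ecm1 then at -0.02. Leaving out 1 sample gave 3 to 7 lower and 0 to 1 higher against vehicle and 4 to 8 lower against pair-fed. Against pair-fed livers, replicates 4 to 6 alone gave 3 lower (Acta2 at 0.09, Myl9 at 0.03), the 3 largest pair-fed libraries 1 (Acta2 at 0.38, Myl9 at 0.10), and replicates 1 to 3 alone 6, with Ecm1 at 0.12. Fewer samples entered these fits. Leaving out 1 sample moved Ecm1 against pair-fed between -0.14 and 0.04.

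Small pair-fed against vehicle differences that did not pass changed sign. With replicates 1 to 3 alone Tagln was at 0.27 and Myl9 at 0.26, and with the 3 smallest pair-fed libraries at 0.30 and 0.36. With replicates 4 to 6 alone Hgf was at -0.04, Rgs5 at -0.16 and Acta2 at -1.18, and with the 3 largest pair-fed libraries at -0.15, -0.32 and -1.21. Rgs5 was at 0.00 under edgeR. Leaving out 1 sample gave -0.02 to 0.15 for Hgf, -0.07 to 0.10 for Rgs5, -0.24 to 0.28 for Acta2, -0.24 to 0.05 for Tagln and -0.19 to 0.08 for Myl9. The causes were not tested.

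The replicate number as a block gave 8 lower members against vehicle (Acta2 at -0.86, DESeq2 adjusted p = 0.0196), 6 against pair-fed and 0 for pair-fed against vehicle, where Acta2 was at -0.12. Under this block 4 retinoid genes in place of 2 were lower against pair-fed. The labels do not say that numbers pair mice, correlations of same-numbered samples ran from -0.219 to 0.520, and most samples did not correlate best with their own number, so they are taken to share only a number.

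Acta2 and Myl9 had the fewest counts, as few as 15 and 28 in a liver, and how much of their spread is counting error was not tested.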
